A study of Homo sapiens with 4 samples.

Results

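Mitochondrial ribosomal proteins build the ribosome that works inside mitochondria. Their genes were taken as every row of the deposited tables whose symbol is MRPL or MRPS followed by a number and at most 1 further letter. The rule found 78 genes among 23444 gene rows, 49 named for the large subunit (MRPL) and 29 named for the small subunit (MRPS). All 78 passed the filter on low counts and were tested among 15293 genes.

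The mitochondrial ribosome translates the few mRNAs that mitochondrial DNA encodes, all of them for subunits of the respiratory chain and ATP synthase. Its proteins, by contrast, are encoded in the nucleus, made in the cytosol and imported. Many descend from proteins of the bacterial ribosome, and others have no bacterial counterpart and were added in the mitochondrial lineage. Names do not always match positions: structures place MRPS18A and MRPS30 in the large subunit, and MRPS36 is known as a subunit of the oxoglutarate dehydrogenase complex.

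RNA came from U87-MG, a human glioblastoma line, in 2 libraries with a hairpin against MAGED2 (shMAGED2 1 and 2) and 2 libraries with a control hairpin (shCON 1 and 2). MAGED2 is a member of the MAGE family of proteins that bind ubiquitin ligases. The series design calls the knockdown stable, whereas the treatment protocol in the labels names hairpins against ZDHHC15, a scrambled control, transient transfection and harvest after 36 h. Which account applies is not settled by the labels, nor whether the cells of a group came from 1 clone or from separate cultures, so p-values measure the spread between these libraries, which may be technical. MAGED2 itself stood at 17.9 and 21.7 CPM (counts scaled to a common, TMM-adjusted library total) in shMAGED2, against 175 and 178 CPM in shCON, a log2 change of -3.16 ± 0.13 (SE, adjusted p = 0.000654). ZDHHC15 had 0 counts in all 4 libraries.

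Total counts were 31160205 and 36234336 in shMAGED2 1 and 2, and 34235565 and 28673774 in shCON 1 and 2, so a count of 0 allows up to 0.105 CPM in the shallowest library. The shMAGED2 libraries differed more from each other than the shCON libraries did: the chi-square of counts per degree of freedom was 79.6 for the shMAGED2 pair and 7.00 for the shCON pair. Of the marker lists, 5 of 5 mesenchymal glioblastoma markers were expressed, with summed FPKM of 4760 and 4320 in shMAGED2 and 4640 and 4440 in shCON. Among 5 astrocyte markers, SLC1A3 alone reached 1 FPKM and AQP4 and ALDH1L1 were listed at 0. The 3 oligodendrocyte and the 3 endothelial markers stayed under 1 FPKM. Of 3 neuron markers SYT1 and SNAP25 reached 1 FPKM, with sums of 11.8 and 11.0 FPKM in shMAGED2 and 12 and 10.4 FPKM in shCON. Of 3 immune markers CD68, a lysosomal protein, reached 1 FPKM and AIF1 was listed at 0, with sums of 296 and 199 FPKM in shMAGED2 and 246 and 243 FPKM in shCON.

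Most mitochondrial ribosomal protein genes were at a somewhat higher level in shMAGED2, and 13 of 78 (16.7%) rose past the threshold, an adjusted p of 0.05 in edgeR's quasi-likelihood test. Of all genes tested, 12.3% rose. None of the 78 fell, where 11.6% of all genes tested fell. At an unadjusted p of 0.05 edgeR counted 27 members higher and 2 lower, MRPL45 and MRPS35. Of the 15293 genes tested, edgeR counted 2954 higher and 2852 lower at that p. DESeq2 and limma-voom also called 0 members lower, and limma on log2(FPKM + 1) called 1, MRPL45. The median log2 change of the 78 was 0.27, with an interquartile range from 0.08 to 0.46, beside a median of 0.00284 over all genes tested. Fitted changes were positive for 64 members and negative for 14, and ran from -0.46 for MRPS36 to 0.81 for MRPL37. The 13 calls rest on both shCON libraries: with either shCON library left out, the 13 no longer passed. Fewer of all genes tested also rose in those fits, where the shMAGED2 pair alone set the spread within a group. The share of members that rose was not above that of all genes tested there. The median log2 change of the members was then 0.305 without shCON 1 and 0.236 without shCON 2, beside 0.0161 and 0.00887 over all genes tested.

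**Figure D1:**
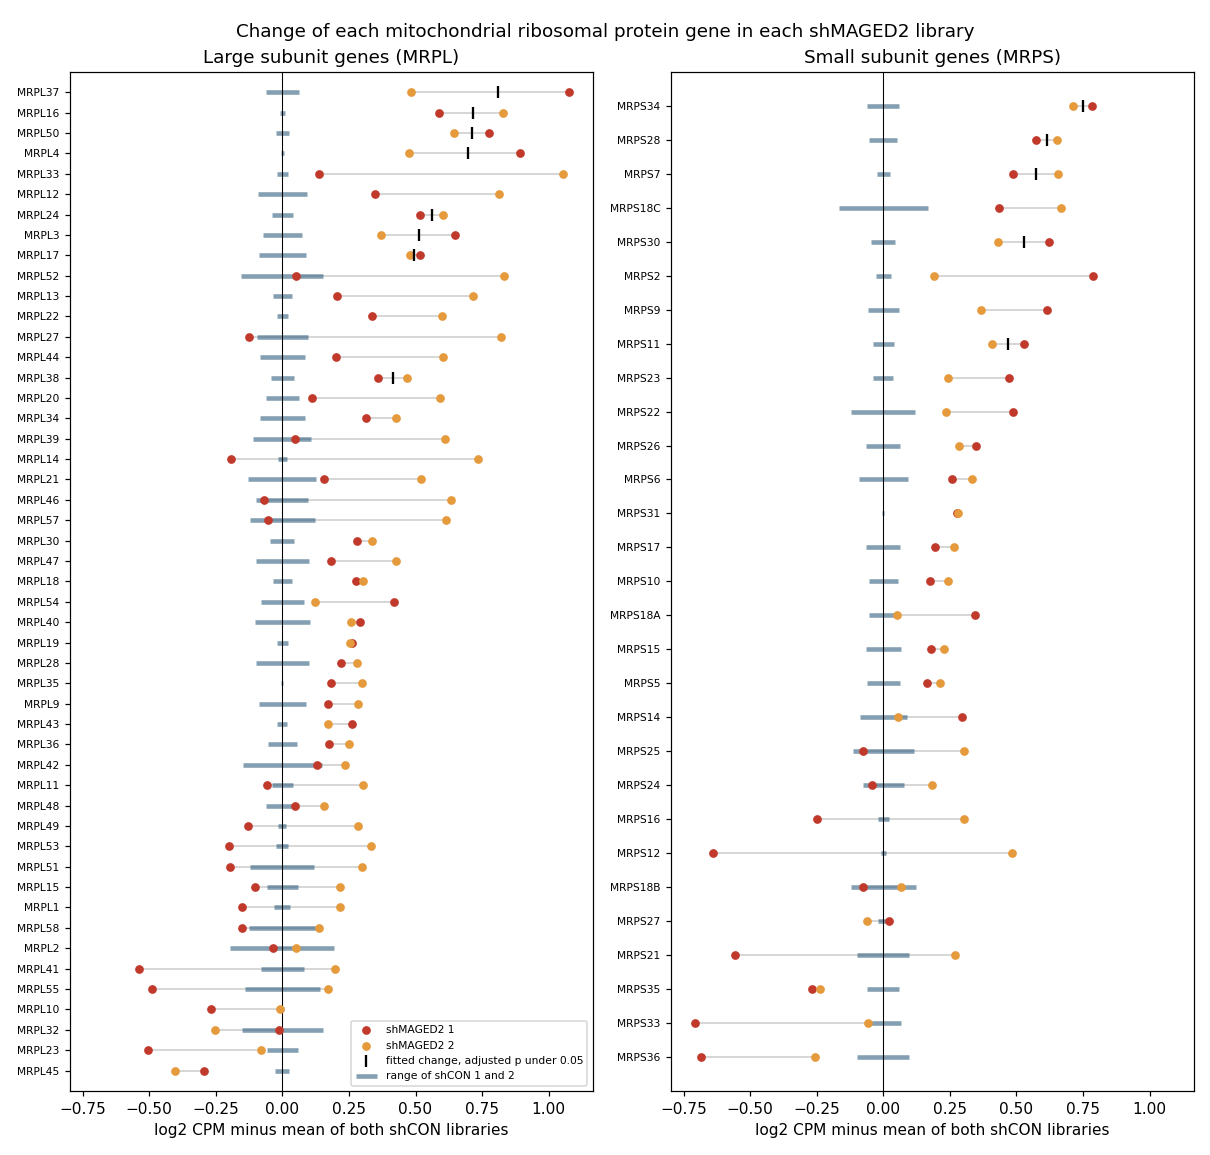
Each row is a gene, ordered by its fitted change; points give log2 CPM in shMAGED2 1 and shMAGED2 2 minus the mean of both shCON libraries, bars span the 2 shCON libraries around that mean, and black ticks mark fitted changes with an adjusted p under 0.05. The 13 ticked genes, called from these same libraries, have both shMAGED2 points right of the shCON bar, which their selection favours. MRPL33 and MRPS12 are among the genes whose 2 points lie far apart.

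The large subunit had 8 of 49 genes that rose (16.3%), with a median log2 change of 0.29, and the small subunit 5 of 29 (17.2%), with a median of 0.21. When MRPS18A and MRPS30 were moved to the large subunit and MRPS36 was left out, as structures place them, the counts became 9 of 51 and 4 of 26. Of members with a bacterial counterpart 8 of 48 rose, and of those without 5 of 30 (16.7% each), with a median log2 change of 0.27 in both. Both shMAGED2 libraries lay above both shCON libraries for 66.7% of members with a counterpart and for 43.3% of those without, beside 33.0% of all genes tested. At an unadjusted p of 0.05 in edgeR, 19 of 48 and 8 of 30 were higher, beside 2954 of 15293 genes tested. The median difference in shMAGED2 1 alone was 0.18 with a counterpart and 0.05 without, and the difference between these lists was not tested.

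In the large subunit, MRPL50, a protein with no bacterial counterpart, had 41.3 and 37.7 CPM in shMAGED2, against 23.7 and 24.5 CPM in shCON. Its fold change was 1.64 (log2 0.71 ± 0.12 SE, adjusted p = 0.012), and the lowest shMAGED2 value was well above the highest shCON value. Genes called from these 4 libraries tend to separate in this way by selection. Separation of the groups in the genes that rose therefore adds no support to their calls. MRPL16, whose bacterial homologue L16 helps to place tRNA near the peptidyl transferase centre, had 38.9 and 46.0 CPM in shMAGED2, against 25.7 and 26 CPM in shCON. Both shMAGED2 libraries were above both shCON libraries, at a fold change of 1.64 (log2 0.72 ± 0.13 SE, adjusted p = 0.0153).

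MRPL4, homologue of the L4 protein that lines the peptide tunnel, had 97.9 and 73.2 CPM in shMAGED2, against 52.5 and 52.9 CPM in shCON. It rose 1.62-fold (log2 0.70 ± 0.16 SE, adjusted p = 0.0262), and the shMAGED2 libraries differed from each other more than the shCON libraries did. MRPL37, a mitochondria-specific protein, was the member with the highest mean FPKM and had 238 and 158 CPM in shMAGED2, against 118 and 108 CPM in shCON. The groups did not overlap, but shMAGED2 1 was far above shMAGED2 2, and the fitted log2 change of 0.81 had an SE of 0.20 (adjusted p = 0.0332).

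MRPL17 and MRPL24 sit at the rim of the tunnel through which the new peptide leaves. MRPL17 had 64.2 and 62.7 CPM in shMAGED2, against 47.7 and 42.2 CPM in shCON (log2 0.50 ± 0.11 SE, adjusted p = 0.0285). MRPL24 had 27.4 and 29.1 CPM in shMAGED2, against 19.7 and 18.6 CPM in shCON (log2 0.56 ± 0.13 SE, adjusted p = 0.029). For both genes the shMAGED2 libraries lay close together and above shCON. MRPL3, homologue of the L3 protein next to the peptidyl transferase centre, had 166 and 137 CPM in shMAGED2, against 101 and 111 CPM in shCON (log2 0.51 ± 0.13 SE, adjusted p = 0.0343). MRPL38, part of the central protuberance and named here after its value was seen because it completes the 8, had 51.1 and 55.1 CPM in shMAGED2, against 41 and 38.6 CPM in shCON (log2 0.42 ± 0.11 SE, adjusted p = 0.045). In neither gene did the groups overlap.

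The small subunit gene with the lowest p was MRPS34, a mitochondria-specific protein in which mutations cause a defect of mitochondrial translation. It had 46.0 and 43.8 CPM in shMAGED2, against 25.6 and 27.9 CPM in shCON. The libraries of each group lay within a few CPM of each other, and the gene rose 1.68-fold (log2 0.75 ± 0.12 SE, adjusted p = 0.00957). MRPS7, homologue of the S7 protein in the head of the small subunit, had 61.3 and 69.0 CPM in shMAGED2, against 43.0 and 44.5 CPM in shCON (log2 0.57 ± 0.11 SE, adjusted p = 0.0181). MRPS11, homologue of the S11 protein on the mRNA path, had 46.1 and 42.4 CPM in shMAGED2, against 32.8 and 31.1 CPM in shCON (log2 0.47 ± 0.12 SE, adjusted p = 0.0364). Neither gene had a shMAGED2 value within the shCON range.

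MRPS28, which carries a domain related to bacterial S1, had 20.1 and 21.2 CPM in shMAGED2, against 13 and 14.0 CPM in shCON (log2 0.61 ± 0.15 SE, adjusted p = 0.0309). MRPS30, named for the small subunit but placed in the large one, had 66.2 and 57.9 CPM in shMAGED2, against 44.3 and 41.7 CPM in shCON (log2 0.53 ± 0.12 SE, adjusted p = 0.027). In both genes the shMAGED2 libraries lay above the shCON libraries. Just outside the threshold was MRPL12, the stalk protein that recruits translation factors, with 63.4 and 87.4 CPM in shMAGED2, against 53.0 and 46.7 CPM in shCON (log2 0.60 ± 0.17 SE, adjusted p = 0.0555). It passed in DESeq2 (adjusted p = 0.00972), in edgeR with no count filter (adjusted p = 0.0257) and with the trend in GC content and length removed (adjusted p = 0.0119), and its adjusted p ranged from 2.59e-07 to 0.27 over all alternatives.

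**Figure D2:**
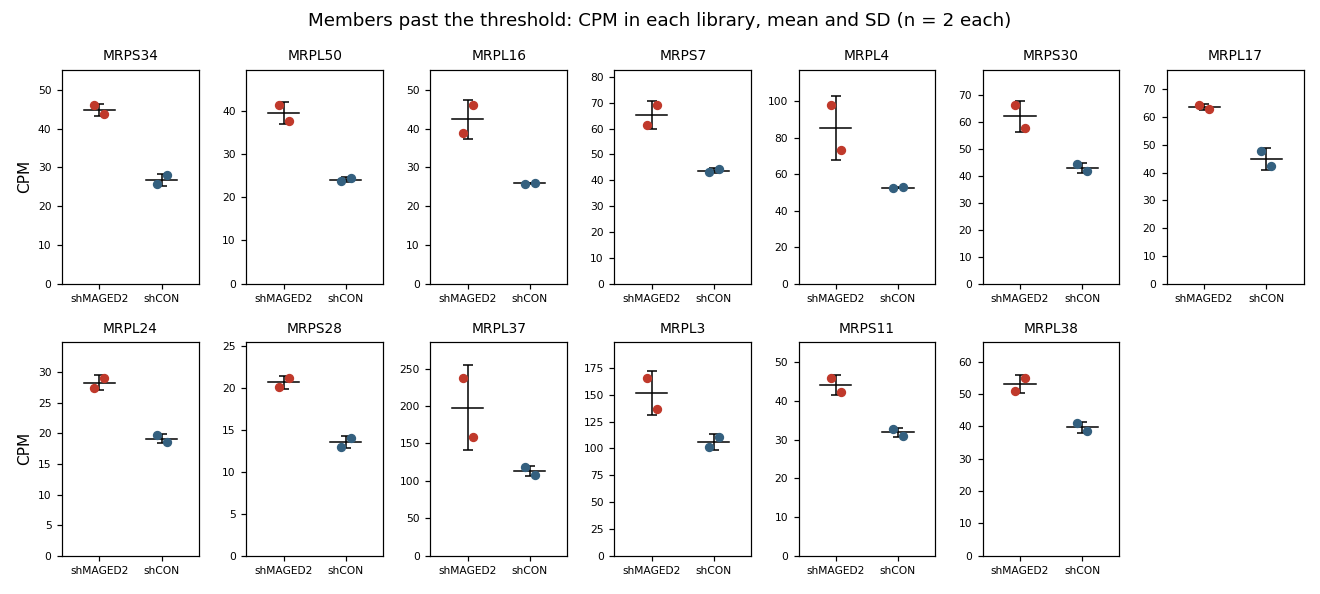
CPM of each of the 13 genes that rose, in the 2 shMAGED2 libraries (left, red) and the 2 shCON libraries (right, blue), each panel on its own linear axis from 0; horizontal lines are means and error bars SD (n = 2 each). No shMAGED2 point lies within the shCON range in any panel, which selection of these genes on the same libraries favours. Both shMAGED2 libraries lay above both shCON libraries for 33.0% of all genes tested. MRPL37 and MRPL4 have the widest spread between shMAGED2 libraries relative to their level.

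The promoters of genes for mitochondrial proteins are known for sites of ETS factors such as GABPA, of YY1 and of NRF1, and MYC binds E-boxes. Windows from RefSeq on GRCh38.p14, 250 bases before to 50 bases after the annotated start, were matched by symbol for 69 of 78 members and for 10416 of the genes tested. Both strands were searched for exact matches to CCGGAAG (ETS), ATGGCGG (YY1), GCATGCG (NRF1) and CACGTG (E-box). The windows are shown for the 4 members with the lowest p, and, chosen after their values were seen, for MRPL45 and MRPS35, which had the lowest p among members at a lower level, and for MRPS12, whose shMAGED2 libraries differed most. Capitals mark the matches, and a match on the other strand appears as its reverse complement. In GENCODE 29 on hg38 the gene of MRPS34 spans chr16:1771890-1773155, that of MRPL50 chr9:101387633-101398614, that of MRPL16 chr11:59806135-59810872 and that of MRPS7 chr17:75261674-75266373. The windows are chr16:1773085-1773384 (minus strand) for MRPS34, chr9:101398569-101398868 (minus) for MRPL50, chr11:59810729-59811028 (minus) for MRPL16 and chr17:75261629-75261928 (plus) for MRPS7. The other windows are chr17:38296918-38297217 (plus) for MRPL45, chr12:27710582-27710881 (plus) for MRPS35 and chr19:38930694-38930993 (plus) for MRPS12. In GENCODE 29 the gene of MRPL45 spans chr17:38297023-38323218, that of MRPS35 chr12:27710773-27756295 and that of MRPS12 chr19:38930548-38933162.
MRPS34: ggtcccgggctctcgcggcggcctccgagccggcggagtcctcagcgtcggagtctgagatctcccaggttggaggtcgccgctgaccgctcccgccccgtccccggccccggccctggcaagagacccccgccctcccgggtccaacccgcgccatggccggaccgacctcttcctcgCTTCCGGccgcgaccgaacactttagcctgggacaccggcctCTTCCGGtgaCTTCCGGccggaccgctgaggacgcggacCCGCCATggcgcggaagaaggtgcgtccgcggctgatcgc
MRPL50: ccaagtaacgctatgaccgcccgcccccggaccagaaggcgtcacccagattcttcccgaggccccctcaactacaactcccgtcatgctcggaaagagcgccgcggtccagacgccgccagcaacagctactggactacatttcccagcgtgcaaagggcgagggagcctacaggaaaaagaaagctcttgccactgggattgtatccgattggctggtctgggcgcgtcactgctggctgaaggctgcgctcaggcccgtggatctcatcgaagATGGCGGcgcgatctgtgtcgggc
MRPL16: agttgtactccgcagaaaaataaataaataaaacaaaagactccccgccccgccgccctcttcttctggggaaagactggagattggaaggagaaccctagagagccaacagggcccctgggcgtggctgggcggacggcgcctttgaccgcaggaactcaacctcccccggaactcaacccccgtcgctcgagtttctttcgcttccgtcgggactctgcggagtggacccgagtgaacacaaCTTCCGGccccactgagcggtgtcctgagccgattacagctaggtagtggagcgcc
MRPS7: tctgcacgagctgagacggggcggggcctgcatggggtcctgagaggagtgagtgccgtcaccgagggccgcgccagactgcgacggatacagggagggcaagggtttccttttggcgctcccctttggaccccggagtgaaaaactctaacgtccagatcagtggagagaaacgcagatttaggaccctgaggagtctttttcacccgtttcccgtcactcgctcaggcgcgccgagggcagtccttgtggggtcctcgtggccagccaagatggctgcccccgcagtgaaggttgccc
MRPL45: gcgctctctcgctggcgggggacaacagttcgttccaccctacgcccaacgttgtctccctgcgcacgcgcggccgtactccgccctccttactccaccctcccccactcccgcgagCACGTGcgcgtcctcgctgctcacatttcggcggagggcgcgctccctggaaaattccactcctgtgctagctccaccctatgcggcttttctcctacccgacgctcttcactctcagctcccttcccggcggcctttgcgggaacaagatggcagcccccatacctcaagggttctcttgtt
MRPS35: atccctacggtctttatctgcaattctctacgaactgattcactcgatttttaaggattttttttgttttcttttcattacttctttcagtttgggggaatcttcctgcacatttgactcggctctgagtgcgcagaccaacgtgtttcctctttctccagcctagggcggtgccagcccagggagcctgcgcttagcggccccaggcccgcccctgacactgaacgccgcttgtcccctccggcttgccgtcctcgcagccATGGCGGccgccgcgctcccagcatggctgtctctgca
MRPS12: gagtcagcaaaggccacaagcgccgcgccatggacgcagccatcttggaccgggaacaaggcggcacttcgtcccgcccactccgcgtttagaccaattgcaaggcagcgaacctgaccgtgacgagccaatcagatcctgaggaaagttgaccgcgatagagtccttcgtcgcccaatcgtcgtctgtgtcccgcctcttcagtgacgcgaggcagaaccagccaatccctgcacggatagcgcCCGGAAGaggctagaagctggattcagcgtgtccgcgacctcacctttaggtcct

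MRPS34 held 3 ETS matches, which began 71, 29 and 19 bases before the start, and a YY1 match that began at base 11 of the transcript. MRPL50 held a YY1 match that began at base 27, MRPL16 an ETS match 6 bases before the start, and MRPS7 none of the 4 motifs. Of the windows at a lower level, MRPL45 held an E-box 133 bases before the start and MRPS35 a YY1 match at base 13. MRPS12 held an ETS match 5 bases before the start. Positions count from the RefSeq start, and the GENCODE gene can begin further upstream. The whole window of MRPS12 lies inside its GENCODE gene. So do the E-box of MRPL45, the ETS match of MRPL16 and the nearest ETS match of MRPS34.

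Over the 69 windows, 29 held an ETS match (42.0%, beside 18.5% of the windows of all tested genes) and 24 a YY1 match (34.8%, beside 10.1%). An NRF1 match stood in 7 (10.1%, beside 6.37%) and an E-box in 6 (8.70%, beside 10.2%). Both ETS and YY1 were found in 7 windows (10.1%, beside 2.47%), and 20 held none of the 4 motifs (29%, beside 62.9%). Members with an ETS match had a median log2 change of 0.28 and 4 that rose, and those without had a median of 0.27 and 8 that rose. The median was 0.22 with a YY1 match and 0.29 without, with 5 and 7 that rose. It was 0.48 with an NRF1 match and 0.28 without, and 0.34 with an E-box and 0.28 without, with 1 and 11 that rose for each of these motifs. For every motif the group with a match was the smaller (29, 24, 7 and 6 of 69 windows), so the counts that rose are not directly comparable. Of all genes tested, 12.3% rose. These are counts of letters in a window, and no binding was measured.

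Members were also grouped by place in the ribosome, and the counts are set beside the 12.3% of all genes tested that rose. The rim of the exit tunnel had 2 of 8 genes that rose (25%, MRPL17 and MRPL24), the proteins of the decoding centre and mRNA path 2 of 6 (33.3%, MRPS7 and MRPS11), the central protuberance 1 of 8 (12.5%, MRPL38) and the stalk region 0 of 5 in edgeR, with MRPL12 higher at an unadjusted p of 0.05 and called by DESeq2. Median log2 changes of these groups were 0.39, 0.33, 0.28 and 0.13. MRPL58, a peptidyl-tRNA hydrolase of the central protuberance that rescues stalled ribosomes, had 19.2 and 23.4 CPM in shMAGED2, against 19.5 and 23.3 CPM in shCON, so that the groups spanned the same range. The 3 descendants of bacterial S18 had log2 changes of 0.20 ± 0.14 for MRPS18A, -0.01 ± 0.14 for MRPS18B and 0.55 ± 0.18 for MRPS18C (SE), and 0 of 3 passed (adjusted p = 0.33, 0.972 and 0.0747).

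The shMAGED2 libraries were then set against shCON library by library. Both shMAGED2 libraries lay above both shCON libraries in CPM for 45 of 78 members (57.7%), where 33.0% of all genes tested did. Both lay below for 5 members (6.41%), where 33.0% of all genes tested did. Those 5 were MRPL10, MRPL23, MRPL45, MRPS35 and MRPS36, and the groups overlapped for the other 28. The median log2 difference from the shCON mean was 0.18 in shMAGED2 1 and 0.30 in shMAGED2 2, beside -0.00316 and 0.0112 over all genes tested. It was above 0 for 51 members in shMAGED2 1 and for 70 in shMAGED2 2. For the large subunit the medians were 0.16 and 0.33, and for the small subunit 0.26 and 0.27.

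Fitted alone against both shCON libraries, on the assumption that the lone library varies like the shCON libraries, shMAGED2 1 gave 26 members that rose (background 23.5%) and 11 that fell (background 23.5%). The 26 are 33.3% of the members and the 11 are 14.1%. shMAGED2 2 alone gave 43 that rose (55.1%, background 21.1%) and 2 that fell (2.56%, background 20.0%), MRPL45 and MRPS35. Both fits use the same shCON libraries.

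Taken directly, shMAGED2 2 was above shMAGED2 1 for 56 of 78 members, beside 7568 of 15293 genes tested. The difference was at least 0.5 (log2) in 17 of 78 members, beside 3593 of 15293 genes tested, a similar share. Of the 17, shMAGED2 2 was higher in 15 and shMAGED2 1 in 2, MRPL37 and MRPS2. The difference was within 0.25 in 41 of 78 members, beside 7564 of 15293 genes tested, again a similar share. The median absolute difference between the shMAGED2 libraries was 0.24 over the members and 0.25 over all genes tested. Between the shCON libraries it was 0.12 over the members and 0.11 over all genes tested.

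MRPS12, homologue of the S12 protein at the decoding centre, showed the largest such difference, with 20.0 and 43.6 CPM in shMAGED2, against 31.3 and 30.9 CPM in shCON. One shMAGED2 library was thus below both shCON libraries and the other above both, and the fitted log2 change over all 4 libraries was 0.03 ± 0.34 (SE, adjusted p = 0.954). MRPL33, homologue of L33, had 11.0 and 20.9 CPM in shMAGED2, against 9.89 and 10.2 CPM in shCON. MRPL14, at the face that meets the small subunit, had 22.5 and 42.8 CPM in shMAGED2, against 25.4 and 26 CPM in shCON. In both of these the second shMAGED2 library alone stood far from shCON. MRPS16 had 109 and 160 CPM in shMAGED2, against 127 and 131 CPM in shCON, with the same pattern as MRPS12. MRPS12, MRPL33 and MRPL14 were named after their values were seen.

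**Figure D3:**
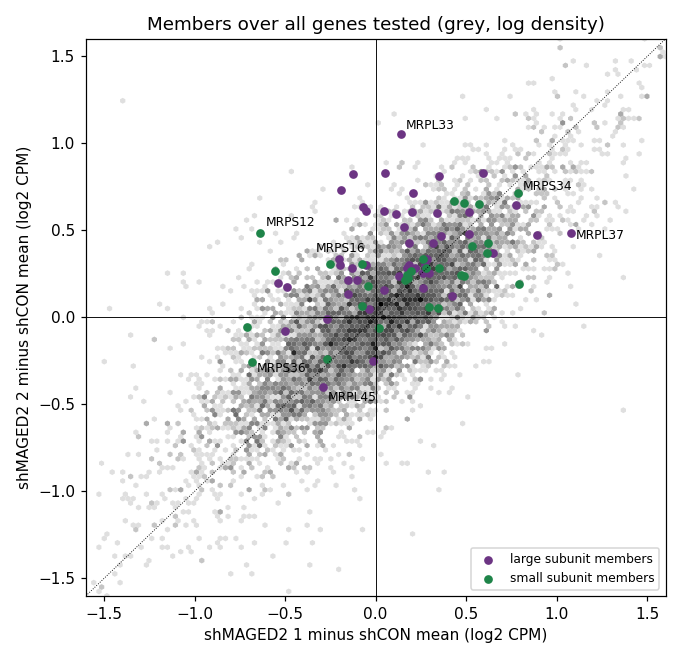
Difference in log2 CPM from the shCON mean in shMAGED2 1 (horizontal) and in shMAGED2 2 (vertical) for large subunit members (purple), small subunit members (green) and all genes tested (grey, darker where genes are denser); both axes share the same shCON mean, and the dotted line marks equal differences. Of the 78 members, 56 lie above the dotted line, beside 7568 of 15293 genes tested, and MRPS12 and MRPS16 lie left of 0 and above 0.

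The share of counts from mitochondrial DNA differed between the shMAGED2 libraries, and changes were also set against the length of the gene model. The 13 mRNAs encoded by mitochondrial DNA took 10.1% and 4.87% of counts in shMAGED2 1 and 2, against 3.92% and 3.90% in shCON. With the genes of mitochondrial DNA removed before library sizes were computed, a choice made after seeing the data, the same 13 members rose (16.7%, beside 12.6% of all genes tested). Members have shorter transcripts than most genes, with a median of 1516 bases beside 3402.5 bases over tested genes with a known length. The 26 shortest members (518 to 1182 bases) had medians of 0.18 in shMAGED2 1 and 0.38 in shMAGED2 2. The 26 in the middle (1199 to 1707 bases) had 0.17 and 0.28, and the 26 longest (1717 to 15582 bases) 0.19 and 0.29. The Spearman correlation of length with shMAGED2 2 minus shMAGED2 1 was -0.18 over the members. It was -0.16 over all genes tested with a known length. With the trend of each library in GC content and length removed, 14 members rose (17.9%, beside 13.9% of all genes tested).

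Members at a lower level in shMAGED2 did not pass the test over all 4 libraries. MRPL45, which ties the ribosome to the inner membrane near the tunnel exit, had 49.0 and 45.5 CPM in shMAGED2, against 59 and 61.2 CPM in shCON. The groups did not overlap, at a log2 change of -0.35 ± 0.11 (SE, adjusted p = 0.0636). The gene passed with upper-quartile factors (edgeR adjusted p = 0.0443) and on log2(FPKM + 1) (limma adjusted p = 0.0454). MRPS35, a mitochondria-specific protein of the small subunit, had 71.0 and 72.5 CPM in shMAGED2, against 82.0 and 89.1 CPM in shCON (log2 -0.25 ± 0.10 SE, adjusted p = 0.122). MRPS36, the oxoglutarate dehydrogenase subunit, had 11.1 and 15.0 CPM in shMAGED2, against 19.2 and 16.8 CPM in shCON (log2 -0.46 ± 0.20 SE, adjusted p = 0.149).

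As a share of the library, the 78 genes together took 0.317% and 0.364% of counts in shMAGED2, against 0.297% and 0.291% in shCON. Per length, their FPKM summed to 2165 and 2556 in shMAGED2 and to 2061 and 1977 in shCON. The large subunit made up 1383 and 1676 FPKM in shMAGED2 and 1294 and 1251 FPKM in shCON, and the small subunit 782 and 880 FPKM in shMAGED2 and 767 and 726 FPKM in shCON. In bulk RNA, fewer cells that express a gene and less RNA per cell cannot be told apart.

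Members differed widely in level although each ribosome holds most of its proteins once. By mean FPKM over all libraries the highest large subunit genes were MRPL37 (99.8 FPKM), MRPL3 (73.3 FPKM) and MRPL20 (61.4 FPKM), and the highest small subunit genes were MRPS24 (74.3 FPKM), MRPS15 (54.9 FPKM) and MRPS16 (48.7 FPKM). The lowest by FPKM were MRPL42 (4.05 FPKM) and MRPL48 (5.25 FPKM) in the large subunit and MRPS17 (3.28 FPKM) and MRPS14 (8.94 FPKM) in the small subunit. This order depends on the gene length used. By counts MRPL42 was not low, with 32.9 and 35.3 CPM in shMAGED2, against 33.3 and 27.1 CPM in shCON. MRPL54 had 5.53 and 4.49 CPM in shMAGED2, against 3.9 and 4.36 CPM in shCON. MRPS24, homologue of the S3 protein at the mRNA entry, had 66.3 and 83.1 FPKM in shMAGED2, against 77.8 and 69.8 FPKM in shCON, so that the groups overlapped.

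Of the 13 members that rose on counts, 9 also passed on log2(FPKM + 1) in limma. MRPL17, MRPL3, MRPS11 and MRPL38 did not, with adjusted p of 0.0517, 0.0539, 0.0753 and 0.0961. The gene length implied by counts and FPKM varied by at most a factor of 1.1 between libraries for 65 members, by more than 1.5 for 2 members, MRPL42 and MRPS23, and by a value in between for 11. MRPL42 had 5.66 and 4.75 FPKM in shMAGED2, against 2.62 and 3.20 FPKM in shCON, and rose by 0.67 on the log2(FPKM + 1) scale (limma adjusted p = 0.0336), whereas its counts gave a log2 change of 0.18 (edgeR adjusted p = 0.429). MRPS23, named after its values were seen, had 8.29 and 8.49 FPKM in shMAGED2, against 14.5 and 7.12 FPKM in shCON, while its counts were 1473 and 1565 in shMAGED2, against 1224 and 1084 in shCON (log2 0.36 ± 0.13 SE, edgeR adjusted p = 0.0932).

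Many of these genes lie close to another gene. A coding gene on the opposite strand started within 1000 bases of 29 members, which makes 30 pairs with MRPL46 and MRPS11 counted from both sides, and 28 partners were tested. Of the 28 partners 7 rose and 1 fell, beside 12.3% and 11.6% of all genes tested, 1 of the 7 being the member MRPS11. In 0 pairs did both genes rise. Among members with a partner, however, only MRPL50, MRPS11, MRPS34 and MRPS7 rose. These are too few to tell whether neighbours change together. The partners of MRPL57, MRPL27, MRPL13 and MRPL51 were among those that rose, and the partners given here were chosen after their values were seen. SKA3, a kinetochore protein next to MRPL57, had 23.1 and 15.6 CPM in shMAGED2, against 3.84 and 4.6 CPM in shCON (log2 2.20 ± 0.25 SE, adjusted p = 0.00353), while MRPL57 had 10.8 and 17.1 CPM in shMAGED2, against 12.2 and 10.3 CPM in shCON (adjusted p = 0.416). NCAPD2, a condensin subunit next to MRPL51, had 248 and 258 CPM in shMAGED2, against 121 and 129 CPM in shCON, while MRPL51 had 42.1 and 59.4 CPM in shMAGED2, against 52.4 and 44.4 CPM in shCON. No source used here gives the strand setting of the counts, and 26 members overlap a coding gene on the opposite strand and 13 a coding gene on the same strand, so reads in those overlaps are of uncertain origin. GENCODE 29 lists 75 pseudogenes named for 34 of the members, and the labels do not say how reads that match both were counted.

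Other genes of mitochondrial translation were counted in lists, beside the 12.3% of all genes tested that rose and the 11.6% that fell. Of 5 mitochondrial ribosomal proteins with other symbols, 1 rose: GADD45GIP1, a large subunit protein, had 117 and 85.4 CPM in shMAGED2, against 59.3 and 56.3 CPM in shCON (log2 0.81 ± 0.17 SE, adjusted p = 0.0199). Of 25 assembly and rRNA modification factors, 4 rose (16.0%) and 1 fell. TRUB2, a pseudouridine synthase, had 82.9 and 84.0 CPM in shMAGED2, against 52.1 and 50.6 CPM in shCON (log2 0.70 ± 0.10 SE, adjusted p = 0.00627). DHX30, a helicase of the RNA granules where the ribosome is assembled, had a log2 change of 0.49 ± 0.09 (adjusted p = 0.0165) and FASTKD2 one of 0.46 ± 0.10 (adjusted p = 0.027). ERAL1, the chaperone of the small subunit rRNA, also rose and NOA1, a GTPase of ribosome assembly, fell (log2 0.44 and -0.46, adjusted p = 0.03 and 0.0469), both named after their values were seen. The median over the 25 was 0.28.

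Of 18 translation factors and partners, 3 rose (16.7%, beside 12.3% of all genes tested). They were MRRF, the recycling factor (log2 0.61 ± 0.10 SE, adjusted p = 0.0115), TUFM, the elongation factor that brings aminoacyl-tRNA (log2 0.39 ± 0.09 SE, adjusted p = 0.029), and SLIRP, which binds mitochondrial mRNAs (log2 0.90 ± 0.25 SE, adjusted p = 0.0458). In edgeR, 0 of 5 genes for the transcription of mitochondrial DNA passed, with 1 at an unadjusted p under 0.05. The rRNAs that the ribosome contains are encoded by mitochondrial DNA and were not analysed here.

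All 13 mRNAs of mitochondrial DNA were at a higher level in both shMAGED2 libraries, where 33.0% of all genes tested were. Past the threshold, 4 of 13 rose (30.8%, beside 12.3% of all genes tested). Their median log2 difference from the shCON mean was 1.6 in shMAGED2 1 and 0.48 in shMAGED2 2, so the library with the higher median for the nuclear members was the one with the lower median here. MT-CYB, cytochrome b, had 5650 and 2680 CPM in shMAGED2, against 1620 and 1560 CPM in shCON (log2 1.39 ± 0.33 SE, adjusted p = 0.0302).

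**Figure D4:**
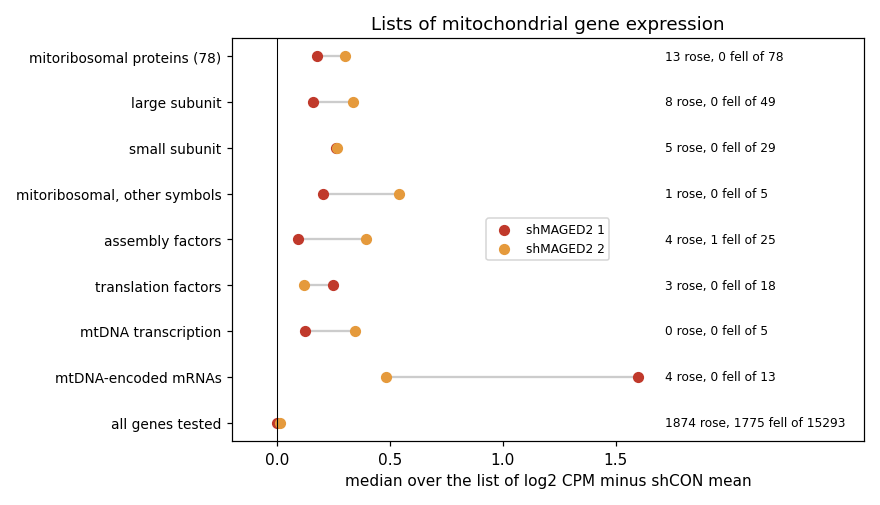
Median over each list of the log2 CPM difference from the shCON mean, in shMAGED2 1 (red) and shMAGED2 2 (orange), with the number of genes that rose and fell at the right. The 13 mRNAs of mitochondrial DNA have medians of 1.6 and 0.48, the 78 mitochondrial ribosomal protein genes 0.18 and 0.30, and all genes tested lie near 0.

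Among 9 nuclear regulators of genes for mitochondrial proteins, 2 rose (22.2%, beside 12.3% of all genes tested). MYC had 163 and 110 CPM in shMAGED2, against 55.1 and 56.1 CPM in shCON (log2 1.29 ± 0.19 SE, adjusted p = 0.0076). PPRC1, a coactivator of the PGC-1 family, had 135 and 95.4 CPM in shMAGED2, against 68.0 and 74.9 CPM in shCON (log2 0.69 ± 0.18 SE, adjusted p = 0.0393). PPARGC1B, just outside the threshold, had 37.1 and 34.6 CPM in shMAGED2, against 27.7 and 23.5 CPM in shCON (log2 0.49 ± 0.14 SE, adjusted p = 0.0512). YY1 had 153 and 171 CPM in shMAGED2, against 166 and 170 CPM in shCON, and GABPA 73.2 and 64.1 CPM in shMAGED2, against 62.2 and 67.2 CPM in shCON, so neither separated the groups. NRF1 had 16.6 and 16.0 CPM in shMAGED2, against 14.3 and 13.1 CPM in shCON (log2 0.25 ± 0.15 SE, adjusted p = 0.286). Its groups did not overlap, but it did not pass the test. ESRRA and PPARGC1A, a nuclear receptor and a coactivator that act on genes of energy metabolism, lay below shCON in both shMAGED2 libraries without passing the test. ESRRA had 45.2 and 85.6 CPM in shMAGED2, against 119 and 114 CPM in shCON (log2 -0.83 ± 0.28 SE, adjusted p = 0.0819). PPARGC1A had 51.0 and 37.1 CPM in shMAGED2, against 59.1 and 64.8 CPM in shCON (log2 -0.49 ± 0.17 SE, adjusted p = 0.0873). YY1, GABPA, NRF1, ESRRA and PPARGC1A were chosen for mention with their values in view. The part of these regulators in the change of the ribosomal genes was not tested.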

How the data were processed

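The authors deposited raw read counts per gene row, in whole numbers, and a table of FPKM, which the authors scaled by gene length and library total; no source used here gives those lengths. HISAT2, StringTie and SAMtools on hg38 are named in the submitters' processing notes, without versions, and the library kit in the labels' protocols. Libraries were assigned to groups by their titles.

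Counts were tested with edgeR 4.0.16 (R 4.3.3): filterByExpr, TMM (factors 0.945 to 1.023), robust quasi-likelihood fit with group as its only term, two-sided, Benjamini-Hochberg over 15293 genes, threshold 0.05. The common dispersion corresponds to a biological coefficient of variation of 0.167, and 2 degrees of freedom remain. Standard errors come from the F statistic. CPM use TMM-scaled totals, and differences per library use log2 CPM with a prior count of 2. FPKM was tested with limma 3.58.1 on log2(FPKM + 1), where at least 2 libraries reached 1 FPKM; this scale understates changes of low genes. DESeq2 1.42.0 and limma-voom were alternatives. The edgeR step was tested on simulated data. Lengths, GC content and neighbours are from GENCODE 29 (hg38).

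Named members were, per subunit, the 6 that rose and the 4 that fell with the lowest p, the 3 highest and 2 lowest by FPKM, and MRPL12, MRPL58, MRPS18A, MRPS18B, MRPS18C, MRPS30 and MRPS36 for their biology; of each companion list, up to 3 by p. Members and lists were chosen with earlier results of these data known.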

Additional observations from a re-analysis of the deposited data

How the results depend on the processing

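With 2 libraries per group, each call depends on how far 1 library moves. Leaving out each library in turn gave 0 to 43 members that rose, 0 to 11 that fell and medians of 0.173 to 0.305. Without shMAGED2 1, 43 rose and 2 fell; without shMAGED2 2, 26 rose and 11 fell, at the lowest median; without either shCON library 0 rose. With either shCON library left out, fewer of all genes tested rose as well, but the share of members that rose was not above theirs. Members that rose numbered 2 on log2(FPKM + 1) without a filter (2.56%, beside 3.34% of all genes tested), against 13 in the main analysis, and 9 to 15 under every other setting that kept all 4 libraries. Under those other settings 11.5% to 19.2% of members rose, beside 9.85% to 15.3% of all genes tested. Exactly 1 member, MRPL45, fell with upper-quartile factors, with library size alone, on log2(FPKM + 1), on log2(FPKM + 0.1) and with a filter of 5 CPM in 2 libraries. The replicate block gave 11 that rose and 0 that fell, and ended the calls of MRPS11 (adjusted p = 0.051), MRPL38 and, among the companions, TUFM (adjusted p = 0.0578). The replicate numbers are not shown to pair the libraries (correlation of deviations by number -0.018 over 15293 genes). Some members changed sign. Without shMAGED2 2, MRPL27 took -0.13, MRPL14 -0.197, MRPL46 -0.0761 and MRPL57 -0.0613, all above 0.3 with all 4 libraries, and MRPS23 took -0.256 on log2(FPKM + 1), against 0.362 on counts. MRPS16 took -0.0277 on log2(FPKM + 1), with or without the filter, and -0.0289 on log2(FPKM + 0.1), and -0.252 to 0.304 with a library left out. MRPL58 took 0.00871 in limma-voom and 0.00173 without the genes of mitochondrial DNA, MRPS18B 0.0145 with the GC content and length trend removed. With a library left out, MRPL58 ranged from -0.158 to 0.134, MRPS18B from -0.125 to 0.117 and MRPS24 from -0.0492 to 0.179. The cause of these changes was not tested.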
